A study of Mus musculus with 16 samples.

Results

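Immunoglobulin gene segments were described across diet and radiation in the proximal jejunum, the upper middle stretch of the small intestine. All mice were CBA/J males aged 8 weeks. The 16 RNA-seq libraries formed 4 groups of 4: methionine adequate diet at 0 Gy, the same diet at 8.5 Gy of gamma rays, methionine supplemented diet at 0 Gy, and the supplemented diet at 8.5 Gy. Supplementation was 300% and a time of 6 days is stated, which may count from the start of the diet or from the irradiation. Replicate numbers used here only name libraries, in the order of the samples, and pair none of them. The labels do not tie a library to an animal, so p-values measure the spread between libraries, which may be in part technical.

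Members were chosen by name and by their summed counts: a heavy, kappa or lambda chain symbol, no pseudogene, and an expected count of at least 100 over the 16 libraries. This gave 47 of 37620 genes. A total of 99 such symbols was in the files, of which 52 lay under the minimum, 9 of them with 0 counts, and 8 pseudogenes were left out by name. Just inside the minimum were Ighv5-2 with 115.19 counts, Igkv4-61 with 127.35 and Iglv2 with 133.32. Just outside it were Igkv4-50 with 85.94 and Igkv4-70 with 83.35. The minimum was taken over all libraries together, so a segment high in 1 library could enter through that library alone.

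The heavy chain locus, on mouse chromosome 12, gave 15 members: the constant genes Ighm, Ighg1, Ighg2b and Ighg3, the joining segment Ighj1 and 10 V segments. The kappa locus on chromosome 6 gave Igkc and 28 V segments, and the lambda locus on chromosome 16 gave Iglc2, Iglv1 and Iglv2. No gene in the files was matched to Igha, the constant gene of IgA, so that isotype was not analysed here. A further 74 V segments, 43 heavy and 31 kappa, carry retired gene IDs and were matched only through transcript IDs. They are not members, and serve as a comparison outside the naming rule. The same count minimum was applied to them, so they too could enter through a single library. Some share reads with members, such as Igkv3-5, with 55.357% of its windows in common with other genes, mainly Igkv3-10.

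An antibody pairs heavy and light chains. In a B cell, a V segment is joined to a J segment, with a D segment between them in the heavy chain, and the joined exon is spliced to a constant region. Each clone uses its own V segments, whereas all clones with a kappa light chain share Igkc. In the gut, plasma cells of the lamina propria secrete mainly IgA, while the B cells of lymphoid follicles carry IgM and IgD on their surface. The joining chain Jchain links secreted IgA and IgM into polymers, which the epithelial receptor Pigr carries into the lumen.

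The 3′ ends of the V segments are shown because the V segments differ in the bases that tell their reads apart while sharing the codons just before the join. Capitals mark the match to TANTNNTGN, where N was T or C at the third, the sixth and the ninth base and A or T at the fifth. It holds the codon of the conserved cysteine at the end of framework 3, read on the transcript strand of GENCODE M21 (build GRCm38, from the C57BL/6J strain).
Igkv17-127: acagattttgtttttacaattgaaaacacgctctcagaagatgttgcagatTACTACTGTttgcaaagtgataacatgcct
Igkv17-121: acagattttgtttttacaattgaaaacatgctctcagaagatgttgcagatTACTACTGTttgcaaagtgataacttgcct
Iglv1: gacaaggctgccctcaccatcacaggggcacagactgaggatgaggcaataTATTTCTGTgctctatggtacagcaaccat
Iglv2: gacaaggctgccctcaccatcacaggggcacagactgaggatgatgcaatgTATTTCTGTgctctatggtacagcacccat
Ighv6-3: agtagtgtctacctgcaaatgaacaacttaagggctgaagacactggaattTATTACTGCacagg
Ighv6-6: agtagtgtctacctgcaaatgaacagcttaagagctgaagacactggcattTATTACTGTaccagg
Ighv3-6: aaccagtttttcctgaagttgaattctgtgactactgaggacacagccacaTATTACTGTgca
Igkv4-72: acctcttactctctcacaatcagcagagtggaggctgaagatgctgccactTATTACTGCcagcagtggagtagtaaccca

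The motif was present in 38 of the 40 V members, and in 37 of them within the last 60 bases. Of all 141767 annotated transcripts, 12.6% held it anywhere and 1.04% in their last 60 bases. The commonest form was TATTACTGT, in 18 members, followed by TATTACTGC in 8. The ends of Igkv17-127 and Igkv17-121 differed at 2 of 81 bases and those of Iglv1 and Iglv2 at 3 of 81. Those of Ighv6-3 and Ighv6-6 differed at 6 of 65. Fragments were short. The gap between a gene's length and its deposited effective length, a stand-in for fragment length, had a median over genes of 44.03 to 47.37 bases per library. Such pairs can therefore share reads. Over windows of 47 bases, 12 members had none in common with another gene, and 7 shared more than 50% of theirs. Igkc, Ighm, Ighg1, Ighg3 and Ighj1 shared 0%, Iglc2 8.75%, Igkv17-127 50.508% and Igkv8-16 73.418%. Levels of single V segments with a high share depend on how the counting divided such reads. The reference strain is not CBA/J, and segments that differ between the strains were not examined. The windows come from GENCODE M21 transcripts, whereas the counts were made with build NCBIM37. Igkv2-137, for example, has 501 bases in the first and 362 in the second. The shares may therefore differ from those of the counted sequences.

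Library totals lay between 2.57 and 15.51 M (mega) counts, and 3 libraries were under 4 M: replicate 1 of the unirradiated adequate group, replicate 2 of the irradiated adequate group and replicate 1 of the irradiated supplemented group. Levels are CPM, that is counts per M counts, on totals scaled by TMM factors, given as mean ± SD (n = 4). Comparisons were tested with edgeR (quasi-likelihood), adjusted by Benjamini-Hochberg over 16558 genes, and calls were made under an adjusted p of 0.05. Of the 47 members, 45 were tested. Ighv3-5 and Igkv4-63 were removed by the low-count filter.

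The summed level of the 47 members was lower in the irradiated libraries on the adequate diet, at 348 ± 40.8 CPM against 659 ± 283 (SD, n = 4). The unirradiated libraries had 550, 470, 536 and 1081.4 CPM and the irradiated ones 363, 297, 339 and 394. All 4 irradiated libraries were below all 4 unirradiated ones, and replicate 4 of the unirradiated group stood well above the rest of its group. With supplementation the sum was 540 ± 148 CPM against 785 ± 450, with 455, 821, 1408 and 455 CPM without radiation and 756, 451, 517 and 436 CPM with it. These groups overlapped. The sums are a description with no test. Their log2 ratios were -0.92 and -0.54 on CPM, and -2.12 and -1.92 on the deposited TPM, where the median of all tested genes was itself at -1.09 and -1.27. In bulk tissue, fewer cells of a type and less RNA per cell cannot be told apart. Members took from 0.0251 to 0.146% of all counts in a library.

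**Figure D1:**
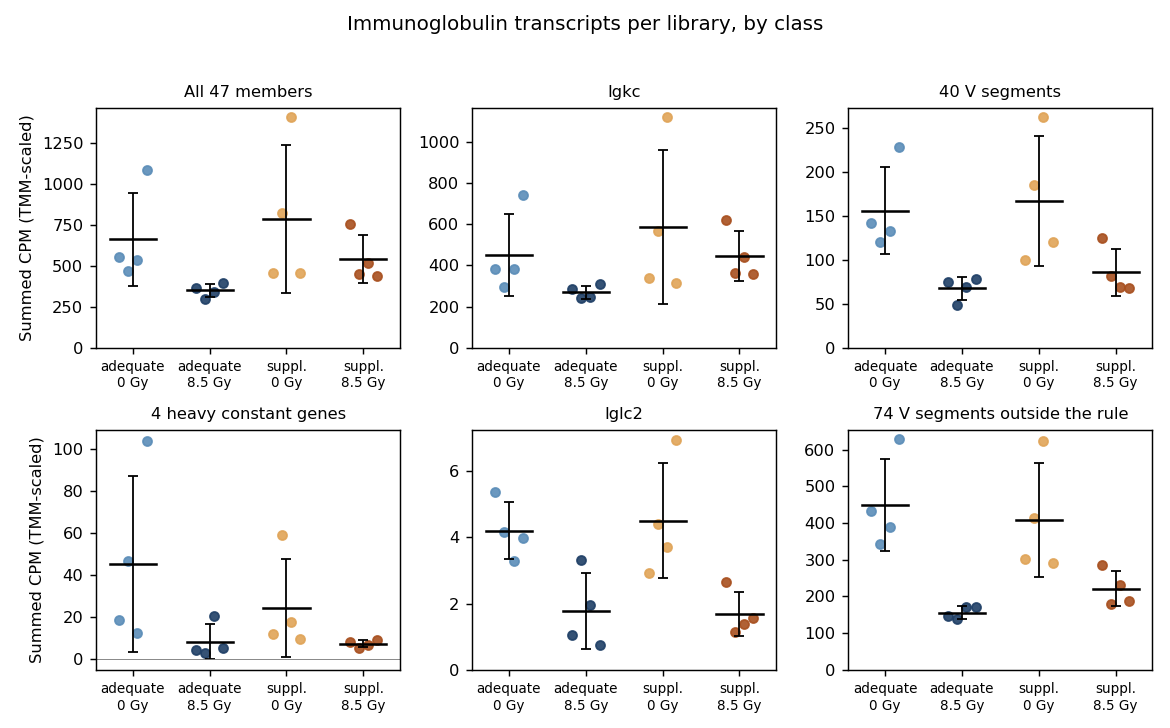
Summed CPM per library (points) of 6 classes of immunoglobulin genes in the 4 groups, with the group mean (line) and SD (bars) of 4 libraries on linear axes. On the adequate diet the irradiated libraries of all 47 members lie between 297 and 394 CPM, under the unirradiated range of 470 to 1081.4 CPM, while on the supplemented diet the ranges overlap.

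Across single members, radiation on the adequate diet lowered 6 of 45 and raised 0, or 13.3%, against 6.58% of all tested genes lower and 7.13% higher. The median log2 fold change of the 45 was -1.25, against 0.01 over all tested genes, and 41 of the 45 values were negative. Radiation lowered 12 of 45 members on the supplemented diet and raised 0, or 26.7%, against 7.21% of all tested genes lower and 8.03% higher. The median was -1.47, against 0.01 over all tested genes, and 39 values were negative. Every irradiated library was below every unirradiated one for 6 members on the adequate diet, 13.3% against 10.1% of all tested genes. It held for 13 members on the supplemented diet, 28.9% against 9.23%. The 2 diets share no library, and 36 members were negative on both. Igkv4-57-1 alone was positive on both, at 0.94 ± 1.06 and 1.03 ± 0.94 (log2, SE), with adjusted p of 0.608 and 0.5 (edgeR).

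Ighg1, Ighj1 and Iglc2 were called lower on both diets. The adequate diet added Igkv16-104, Igkv4-72 and Igkv6-20. The supplemented diet added Ighv6-3, Ighv6-6, Igkv12-46, Igkv3-10, Igkv4-80, Igkv5-48, Igkv6-32, Igkv8-21 and Iglv2. On both diets 0 members had an unadjusted p under 0.05 with a higher level (edgeR, DESeq2 and limma voom). DESeq2 called 12 and 15 members lower, and limma voom 6 and 11. The 6 on the adequate diet became 3 without replicate 1 or without replicate 4 of its irradiated group, and the 12 became 7 without replicate 2 of the irradiated supplemented group. A call on 1 diet alone does not show that the diets differ, and the test of that difference is given below with the diet comparisons.

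**Figure D2:**
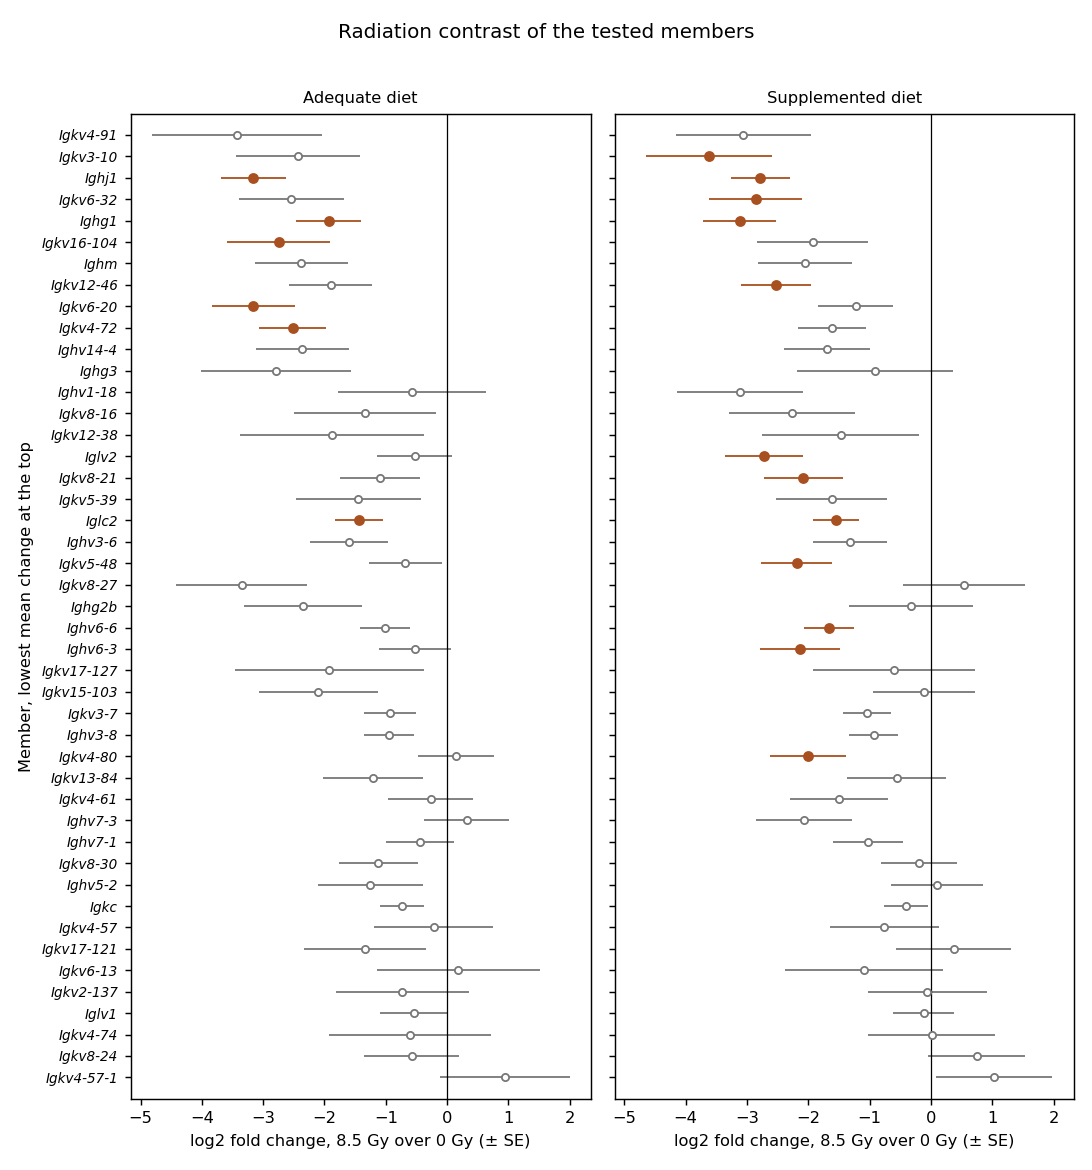
Log2 fold change of 8.5 Gy over 0 Gy (points) with its SE (bars) for the 45 tested members on each diet, ordered by the mean of both; filled points have an edgeR adjusted p under 0.05. The filled points, 6 on the adequate diet and 12 on the supplemented one, all lie left of 0.

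Ighm encodes the heavy chain of IgM, the first isotype a B cell makes. Its CPM was 15.7, 31.4, 10.0 and 67.0 in the unirradiated adequate libraries and 2.85, 2.07, 13.2 and 4.41 in the irradiated ones. Replicate 3 of the irradiated group, at 13.2, lay above replicate 3 of the unirradiated group, so the groups overlapped. Supplemented libraries had Ighm at 9.31, 48.5, 11.6 and 6.55 CPM without radiation and at 4.4, 3.69, 5.17 and 4.94 CPM with it, with no overlap. The log2 fold changes were -2.38 ± 0.76 (SE) and -2.05 ± 0.77. Neither passed the test, with adjusted p of 0.0534 and 0.0883 (edgeR).

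Ighg1 encodes the heavy chain of IgG1, a switched isotype. On the adequate diet it was at 1.15, 3.18, 1.34 and 4.38 CPM without radiation and at 0.845, 0.415, 1.23 and 0.167 CPM with it. The ranges touched, since 1.23 exceeded 1.15. In the supplemented groups it was at 1.88, 3.19, 2.4 and 1.08 CPM against 0.293, 0.269, 0.138 and 0.291 CPM, with no overlap. Ighg1 fell on both diets, by 1.93 ± 0.53 on the log2 scale (SE; edgeR adjusted p = 0.0222) and by 3.12 ± 0.60 (adjusted p = 0.00251). On the adequate diet the call was lost without any 1 of 4 libraries, replicates 2 and 4 of the unirradiated group and replicates 1 and 4 of the irradiated one, with a largest adjusted p of 0.0841.

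Ighg2b and Ighg3, further IgG heavy chains, were carried by a few libraries. Ighg2b was at 1.15, 6.36, 0.619 and 20.2 CPM in the unirradiated adequate libraries, and Ighg3 at 0.383, 5.92, 0.309 and 12.9 CPM. Both were high in replicates 2 and 4 and low in the other two. After irradiation Ighg2b was at 0.633, 0, 3.79 and 0.666 CPM, and Ighg3 at 0.106, 0.415, 2.25 and 0.0833 CPM. Neither passed the test on either diet, with adjusted p of 0.121 and 0.874 for Ighg2b and of 0.144 and 0.681 for Ighg3 (edgeR). Over the 16 libraries their log2 CPM moved together, with a Pearson correlation of 0.865 that is a description across all groups.

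Among the counts on the 4 heavy constant genes, Ighm held 74.5 ± 10.5% and 70.8 ± 8.68% on the adequate diet without and with radiation. The same shares with supplementation were 74.3 ± 7.72% and 64.4 ± 13.0% (SD, n = 4). The ranges overlapped throughout. The summed level of these 4 genes was 45.5 ± 42.1 and 8.29 ± 8.19 CPM on the adequate diet and 24.4 ± 23.3 and 7.28 ± 1.77 CPM on the supplemented one. Replicate 2 of the irradiated adequate group rested on 7 heavy constant counts.

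Ighj1 is the joining segment at the 5′ end of the heavy chain J cluster, and its annotated exon is 53 bases long, shown because so few bases carry the counts.
Ighj1: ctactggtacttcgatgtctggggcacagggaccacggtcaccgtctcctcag

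Ighj1 was at 3.07, 1.68, 4.43 and 3.42 CPM in the unirradiated adequate libraries and at 0.528, 0.83, 0.205 and 0.167 CPM in the irradiated ones. The supplemented values were 2.41, 4.73, 2.0 and 2.54 CPM against 0.293, 0.671, 0.138 and 0.485 CPM. It was the member whose irradiated libraries lay below all unirradiated ones on both diets. It fell by 3.16 ± 0.53 on the log2 scale (SE; edgeR adjusted p = 0.00106) and by 2.78 ± 0.48 (adjusted p = 0.00123). The calls held with each of the 16 libraries left out in turn, with a largest adjusted p of 0.00653.

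**Figure D3:**
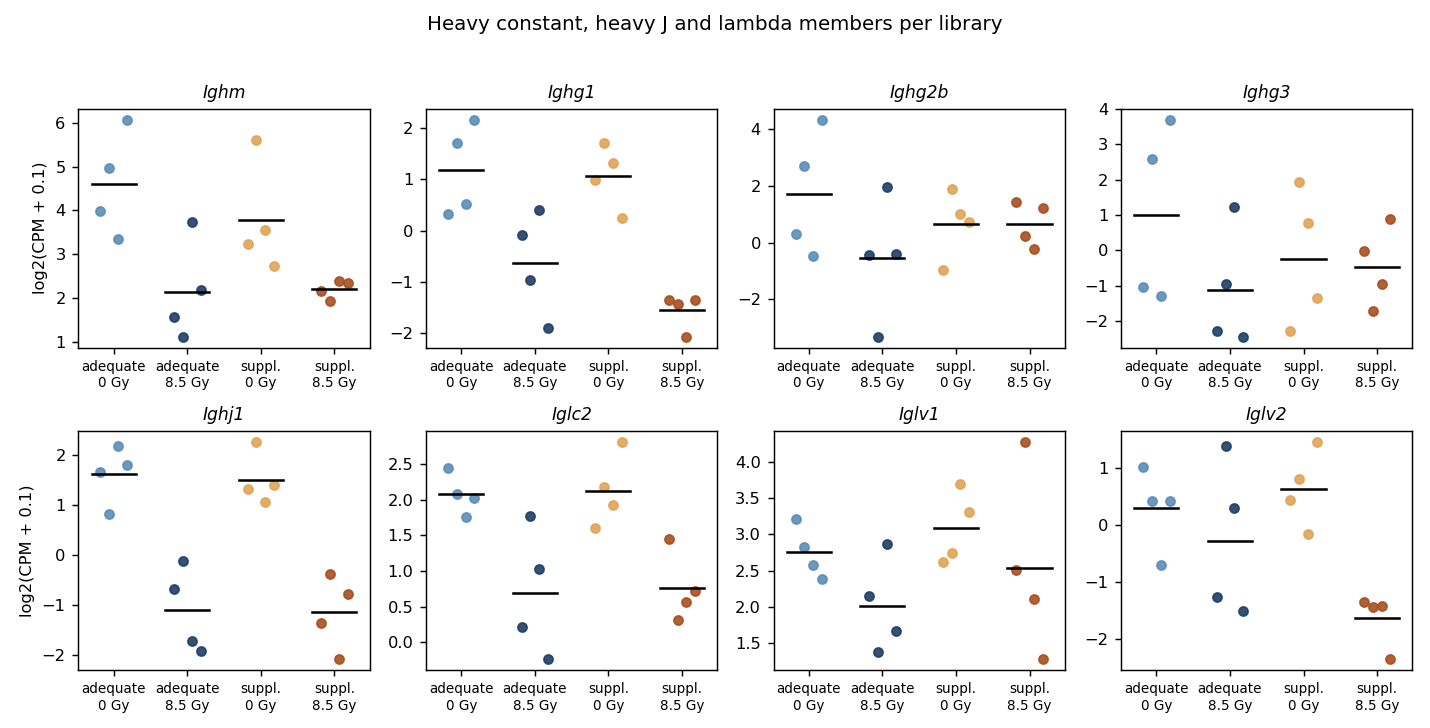
Log2(CPM + 0.1) per library (points) and the mean of those log values (line) for the heavy constant, heavy J and lambda members in the 4 groups. Ighj1 shows no overlap between 0 and 8.5 Gy on either diet, while Ighg2b and Ighg3 spread over several log2 units within a group.

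Igkc, the constant region of kappa light chains, held 75.2% of the 87895 counts on members. It was at 381, 297, 384 and 742 CPM in the unirradiated adequate libraries and at 283, 242, 247 and 309 CPM in the irradiated ones. The highest irradiated library, at 309, lay just above the lowest unirradiated one, at 297. Supplemented libraries had Igkc at 339, 568, 1123.2 and 316 CPM without radiation and at 620, 363, 441 and 357 CPM with it. These ranges overlapped widely. The log2 fold changes were -0.74 ± 0.36 (SE; edgeR adjusted p = 0.187) and -0.40 ± 0.36 (adjusted p = 0.497), neither past the threshold. Without replicate 3 of the unirradiated supplemented group, at 1123.2 CPM, the second value became 0.12.

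As a share of the counts on members, Igkc was higher in every irradiated library than in every unirradiated one of the same diet. It held 68.2 ± 3.54% without and 77.7 ± 3.6% with radiation on the adequate diet, with ranges of 63.2 to 71.6% and 72.9 to 81.5%. The supplemented groups had 73.2 ± 5.01% and 82.4 ± 2.03%, with ranges of 69.2 to 79.8% and 80.5 to 85.3% (SD, n = 4). The members other than Igkc summed to 208 ± 87.8 and 77.9 ± 15.9 CPM on the adequate diet and to 198 ± 83.1 and 94.8 ± 27.6 CPM on the supplemented one. The shares are a description with no test.

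Iglc2, a lambda constant gene, fell on both diets. It was at 5.37, 4.15, 3.3 and 3.99 CPM in the unirradiated adequate libraries and at 1.06, 3.32, 1.95 and 0.75 CPM in the irradiated ones. The supplemented values were 2.93, 4.42, 3.7 and 6.94 CPM against 2.64, 1.14, 1.38 and 1.55 CPM, with no overlap. It fell by 1.44 ± 0.39 on the log2 scale (SE; edgeR adjusted p = 0.0217) and by 1.55 ± 0.37 (adjusted p = 0.00975). On the adequate diet the call was lost without replicate 2 of the unirradiated group or without replicate 1 or 4 of the irradiated one, with a largest adjusted p of 0.0825.

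Kappa outweighed lambda in every library. Of the counts on Igkc and Iglc2, Igkc held 99.0 ± 0.405% and 99.3 ± 0.502% on the adequate diet without and with radiation. Supplemented groups had 99.0 ± 0.783% and 99.6 ± 0.0635% (SD, n = 4). Iglc2 is the only lambda constant gene among the members, so this share leaves out any other. On the V members the gap was smaller. In the unirradiated adequate group, kappa V segments summed to 104 ± 33.7 CPM and lambda ones to 8.02 ± 2.24. In the irradiated supplemented group, the sums were 58.6 ± 22.6 and 8.08 ± 7.77 CPM. Per length, the deposited TPM in the unirradiated adequate group was 601 ± 287 for Igkc and 2.7 ± 0.512 for Iglc2. The heavy chain Ighm stood at 8.66 ± 7.43 TPM.

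The pair of lambda V segments, whose ends are nearly alike, did not give the same values. Iglv2 was at 1.25, 1.65, 0.799 and 2.64 CPM in the unirradiated supplemented libraries and at 0.293, 0.269, 0.276 and 0.0969 CPM in the irradiated ones, with no overlap. It fell by 2.72 ± 0.64 on the log2 scale (SE; edgeR adjusted p = 0.00956). On the adequate diet its log2 fold change was -0.53 ± 0.61 (adjusted p = 0.615). The irradiated supplemented libraries held only 1.1, 4.4, 3.9 and 1.5 Iglv2 counts. Iglv1 was at 5.58, 19.3, 4.2 and 2.33 CPM in the irradiated supplemented libraries, so that replicate 2 alone held more than the other three together. Its log2 fold changes were -0.54 ± 0.56 and -0.12 ± 0.50, with adjusted p of 0.564 and 0.906 (edgeR). Over 16 libraries the Pearson correlation of log2 CPM with Iglc2 was 0.816 for Iglv2 and 0.312 for Iglv1, as a description across all groups.

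V segments take the variable part of each chain from a pool of related copies. The 40 V members, in 19 families by name, summed to 156 ± 48.9 and 67.4 ± 13.3 CPM on the adequate diet without and with radiation. All irradiated libraries, from 48.1 to 78.0 CPM, were below the unirradiated ones, from 120 to 228 CPM. Sums in the supplemented groups were 166 ± 73.2 and 85.4 ± 26.7 CPM, and the ranges overlapped. The heavy V segments alone, at 46.4 ± 21.3 and 18.7 ± 5.85 CPM, did not overlap on that diet (26.8 to 65.4 CPM against 12.2 to 26.4 CPM).

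Of the 9 tested heavy V segments, 0 were called on the adequate diet, where 4 had an unadjusted p under 0.05 (edgeR) and DESeq2 called 2 and limma voom 1. On the other diet, 2 were called lower, or 22.2% against 7.21% of all tested genes. The called pair was Ighv6-3 and Ighv6-6, whose ends are printed above. Ighv6-6 was at 2.51, 2.78, 3.4 and 2.93 CPM in the unirradiated supplemented libraries and at 0.587, 1.28, 0.964 and 0.582 CPM in the irradiated ones, with no overlap. Ighv6-3 was at 3.76, 3.7, 4.5 and 2.25 CPM against 2.35, 0.134, 0.964 and 0.679 CPM, where the ranges touched. The call of Ighv6-3 was lost in 6 of 16 leave-one-out fits, with a largest adjusted p of 0.114, and that of Ighv6-6 in 0 of 16.

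Ighv3-6 was the most counted V member, with 1447.99 expected counts. It was at 14.6, 10.9, 12.9 and 12.9 CPM in the unirradiated adequate libraries and at 5.49, 2.07, 3.58 and 4.5 CPM in the irradiated ones, with no overlap. Its log2 fold change of -1.60 ± 0.64 (SE) had an adjusted p of 0.115 (edgeR). With supplementation, replicate 2 of the unirradiated group stood at 37.9 CPM and the irradiated libraries at 14.4, 4.36, 3.17 and 7.27 CPM. Ighv7-1, next among heavy V segments, had log2 fold changes of -0.44 ± 0.55 and -1.02 ± 0.57, with adjusted p of 0.65 and 0.261.

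Of the 27 tested kappa V segments, 3 were called lower on the adequate diet, or 11.1% against 6.58% of all tested genes. On the supplemented diet it was 6, or 22.2% against 7.21%. Igkv6-20 was at 7.67, 4.86, 1.13 and 2.09 CPM in the unirradiated adequate libraries and at 0.211, 0.415, 0.614 and 0.333 CPM in the irradiated ones. It fell by 3.16 ± 0.68 on the log2 scale (SE; edgeR adjusted p = 0.00631). Igkv6-20 shared 65.35% of its windows with other genes, mainly Igkv6-29. The irradiated adequate libraries held only 2, 1, 5.8 and 4 of its counts.

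Igkv4-72 was at 3.83, 14.7, 7.22 and 4.95 CPM in the unirradiated adequate libraries and at 1.48, 2.07, 1.13 and 1.25 CPM in the irradiated ones, with no overlap. It fell by 2.52 ± 0.54 on the log2 scale (SE; edgeR adjusted p = 0.00659). Igkv16-104 rested on replicate 3 of the unirradiated adequate group, at 27.3 CPM against 1.92, 5.21 and 3.14 in the other three. The irradiated libraries had 2.75, 0.415, 1.64 and 0.5 CPM. It fell by 2.75 ± 0.84 on the log2 scale (SE; edgeR adjusted p = 0.044). The call was lost in 11 of 16 leave-one-out fits, while the log2 fold change stayed negative, between -3.36 and -1.33.

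Igkv12-46 was at 4.39, 3.39, 8.89 and 2.54 CPM in the unirradiated supplemented libraries and at 0.293, 1.54, 0.62 and 0.485 CPM in the irradiated ones, with no overlap. It fell by 2.52 ± 0.57 on the log2 scale (SE; edgeR adjusted p = 0.00714) and kept its call in all 16 leave-one-out fits. The other 5 called kappa V segments on that diet, Igkv3-10, Igkv4-80, Igkv5-48, Igkv6-32 and Igkv8-21, fell by between 2.01 and 3.62 on the log2 scale. Each of them lost its call in at least 2 of 16 leave-one-out fits.

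Single V segments differed more within a group than other genes of like level. The median within-group SD of log2 CPM was 1.14 over the 38 tested V members, 0.86 over the 6 constant members, and 0.44 over 6334 tested genes in the same range of level. Among the 40 V members, 19 had more than 25% of their counts in 1 library, and 16 were at 0 in at least 1 library. Igkv4-63 had 77.7% of its counts in replicate 4 of the irradiated adequate group, at 13.5 CPM, against 0 to 3.07 CPM in the other 15 libraries. Igkv17-127 was at 27.7 CPM in replicate 4 of the unirradiated adequate group against 1.53, 1.77 and 2.06 in the others. It was at 53.0 CPM in replicate 3 of the unirradiated supplemented group against 2.3, 3.29 and 0.489, and at 28.5 and 11.8 CPM in replicates 1 and 3 of the irradiated one.

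Among the members, 10 V segments took first place over the 16 libraries. With the 74 segments outside the rule added, 6 different segments took first place. Ighv1-82 alone led in 11 of the 16 libraries, so the leader changed less often than among the members. The leading segment held 14.4 ± 4.17% and 13.7 ± 3.32% of V counts on the adequate diet without and with radiation. Under supplementation it held 16.6 ± 4.4% and 21.0 ± 2.93% (SD, n = 4). The effective number of V segments is the inverse Simpson index, the inverse probability that a pair of counts falls on the same segment. It was 17.4 ± 3.68 and 17.3 ± 4.02 on the adequate diet. Under supplementation it was 16.1 ± 2.4 and 12.4 ± 2.71. With the 74 segments outside the rule added, the lower value of the irradiated supplemented group was no longer seen, at 40.0 ± 4.43 against 38.4 ± 2.07 without radiation, and the adequate groups stood at 38.7 ± 9.64 and 44.5 ± 5.26. V counts per library lay between 115.1 and 2619.7, so shares in the shallow libraries rest on few counts.

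**Figure D4:**
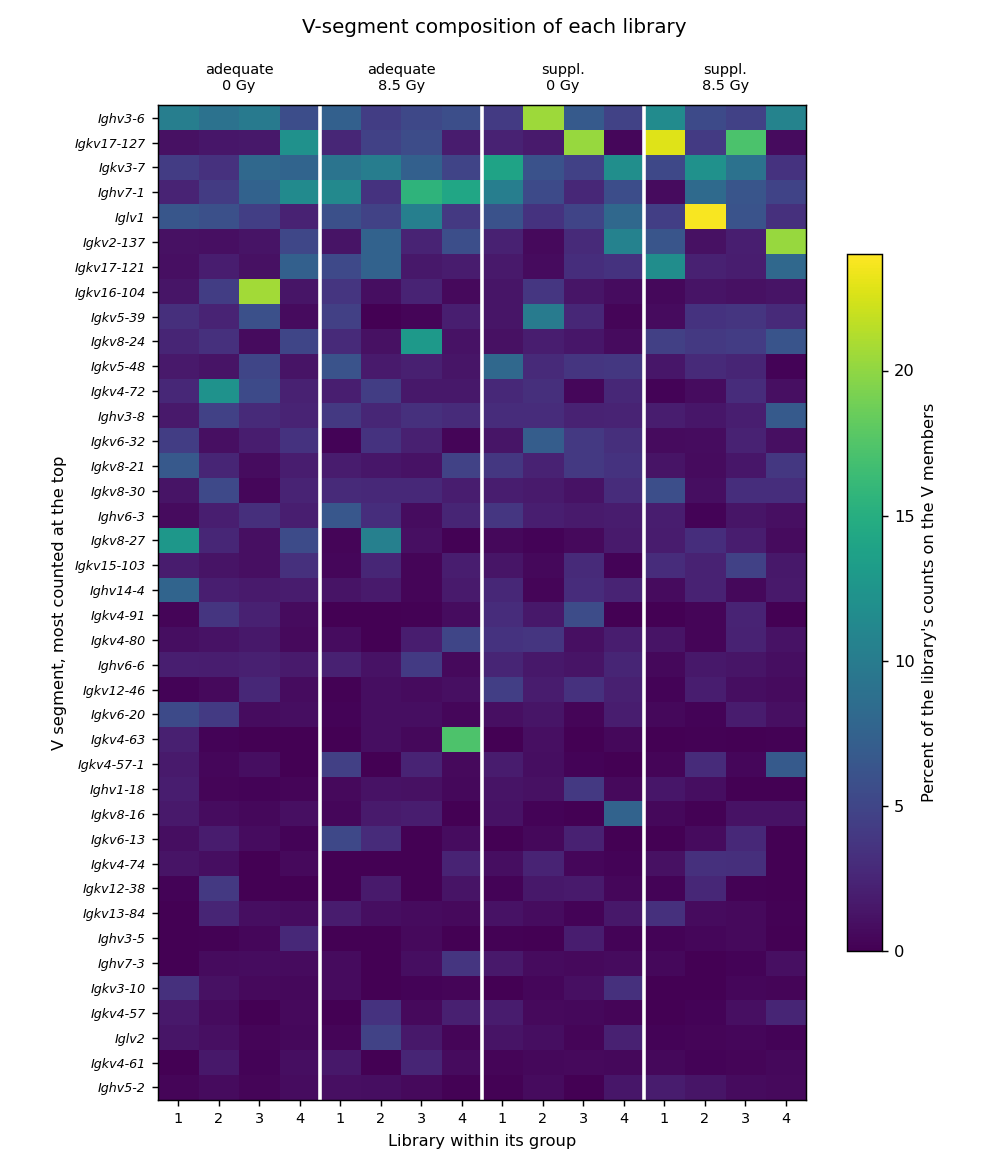
Share of each library's V-member counts (colour, percent) taken by each of the 40 V members (lines of the map, most counted at the top) in the 16 libraries (columns, by group). Bright cells fall on different segments in different libraries, such as Igkv16-104 in replicate 3 of the unirradiated adequate group at 20.7%.

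The 74 segments outside the rule were mostly lower after irradiation as well. On the adequate diet 18 of 70 tested segments were called lower and 0 higher. The 18 are 25.7%, against 6.58% of all tested genes. The median log2 fold change was -1.48, and 68 were negative. On the supplemented diet 16 of 70 were lower and 0 higher, with a median of -1.21 and 55 negative. The 16 are 22.9%, against 7.21% of all tested genes. A total of 9 were called on both diets, among the 18 and the 16. Their summed level was 449 ± 126 and 156 ± 16.9 CPM on the adequate diet and 408 ± 155 and 221 ± 48.5 CPM on the supplemented one, without overlap on either diet.

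Ighv1-82, with 5290.1 expected counts the most counted V segment in the files, was among these 9. It was at 42.9, 54.7, 81.1 and 71.4 CPM in the unirradiated adequate libraries and at 13.9, 12.0, 17.2 and 14.2 CPM in the irradiated ones. The supplemented values were 36.8, 47.5, 56.0 and 46.1 CPM against 15.6, 9.47, 27.4 and 7.85 CPM. It fell by 2.11 ± 0.32 on the log2 scale (SE; edgeR adjusted p = 0.000792) and by 1.62 ± 0.31 (adjusted p = 0.00329). Its lowest unirradiated library, at 36.8 CPM, lay above the highest irradiated one, at 27.4 CPM.

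Genes that work beside the antibody chains were read from lists of known markers. Of 12 tested plasma cell genes, 5 fell and 1 rose on the adequate diet, and 3 fell and 1 rose on the supplemented one (edgeR). Among all tested genes, 6.58% and 7.21% were called lower, and 7.13% and 8.03% higher. The median log2 fold changes of the plasma cell list were only -0.07 and -0.24. The calls thus describe single genes and not the list as a whole. Jchain was at 285, 217, 220 and 427 CPM in the unirradiated adequate libraries and at 111, 67.2, 112 and 113 CPM in the irradiated ones. On the supplemented diet it was at 206, 262, 393 and 175 CPM against 162, 135, 140 and 118 CPM. Jchain fell by 1.5 ± 0.26 on the log2 scale (SE; adjusted p = 0.00154) and by 0.90 ± 0.26 (adjusted p = 0.0265), with no overlap on either diet. Mzb1, a chaperone of antibody assembly, fell by 1.81 ± 0.33 on the adequate diet (adjusted p = 0.00237). Its value on the supplemented diet was -0.80 ± 0.32 (adjusted p = 0.103), with overlapping groups. Xbp1, a transcription factor that epithelial secretory cells also use, rose on the adequate diet by 0.39 ± 0.10 (adjusted p = 0.0211).

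Of 8 tested mature B cell genes, 6 fell on the adequate diet and 1 on the supplemented one, against 6.58% and 7.21% of all tested genes. The median log2 fold changes of the list were -1.48 and -0.63. Cd79a, a signalling subunit of the B cell receptor, fell by 2.58 ± 0.58 on the log2 scale (SE; edgeR adjusted p = 0.00751) and by 1.93 ± 0.59 (adjusted p = 0.0351). The summed level of the mature B cell list was 23.9 to 78.6 CPM without and 13.9 to 19.7 CPM with radiation on the adequate diet. On the supplemented diet it was 20.8 to 52.8 CPM and 14.3 to 22.0 CPM. Ms4a1, a surface marker of mature B cells, was too low to test. It was at 2.21 and 4.85 CPM in replicates 2 and 4 of the unirradiated adequate group and at 2.78 CPM in replicate 2 of the unirradiated supplemented group. It was at 0 to 0.88 CPM in the other 13 libraries. The same 3 libraries were the highest for Ighm and Ighg3, and how far mature B cell RNA bears on these heavy chain values was not tested.

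Of 16 tested genes of IgA induction, homing and transport, 2 fell on the adequate diet and 4 on the supplemented one. Among all tested genes, 6.58% and 7.21% were called lower. The median log2 fold changes of the list were -0.31 and -0.36. Itgb7, a subunit of the gut homing integrin, fell on both, by 1.11 ± 0.23 (SE; edgeR adjusted p = 0.00522) and by 0.74 ± 0.23 (adjusted p = 0.0349) on the log2 scale. Ccl25, the epithelial chemokine that draws plasma cells to the small intestine, fell on the supplemented diet by 0.77 ± 0.18 (adjusted p = 0.00817). The receptor Pigr had log2 fold changes of 0.27 ± 0.21 and 0.19 ± 0.21, with adjusted p of 0.421 and 0.576. Of 7 tested Fc and polymeric immunoglobulin receptors, 2 rose on the adequate diet and 3 on the supplemented one. Among all tested genes, 7.13% and 8.03% were called higher. Fcgr2b, the inhibitory receptor for IgG, rose by 1.56 ± 0.26 (adjusted p = 0.00108) and by 1.80 ± 0.24 (adjusted p = 0.000181).

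Marker genes of some other cell types differed with dose. For comparison, 6.58% and 7.21% of all tested genes were called lower on the adequate and supplemented diets, and 7.13% and 8.03% higher. All 5 red blood cell genes fell on both diets, from a summed 365 to 591 CPM to 3.28 to 8.66 CPM on the adequate diet and from 120 to 393 CPM to 3.59 to 28.0 CPM on the supplemented one. Of 5 macrophage genes, 2 rose on each diet, with sums of 123 to 175 CPM against 182 to 259 CPM and of 126 to 195 CPM against 241 to 348 CPM. Of 8 tested T cell genes, edgeR, DESeq2 and limma voom called 0 on either diet, and edgeR gave an unadjusted p under 0.05 to 0 and 1 of them. Of 7 epithelial genes, 1 fell and 1 rose on the adequate diet and 1 rose on the supplemented one. The surrogate light chain genes Vpreb2 and Igll1, markers of precursor B cells, had fewer than 3 counts in all, and 0 of that list could be tested. The part of red blood cell and macrophage RNA in the immunoglobulin values was not tested.

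Ighm and Igkc were closest to different genes. Over the 16 libraries the genes with the highest Pearson correlation of log2 CPM to Ighm were Cd37 at 0.92, Rasal3 at 0.917, Cd79a at 0.917, Siglecg at 0.905 and H2-Ob at 0.887. Those closest to Igkc were Adgrg3 at 0.879, Dock10 at 0.863, Ifi205 at 0.818, Itga4 at 0.814 and Wfikkn2 at 0.813. Jchain stood at 0.79 to Ighm and 0.756 to Igkc, and Cd79a at 0.917 and 0.415. Ighm and Igkc correlated at 0.424 with each other. These values span all 4 groups, share each library's depth, and are a description.

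Supplementation moved no member past the threshold at either dose. Without irradiation 0 of 45 members were called, against 0.0302% of all tested genes lower and 0.169% higher. After irradiation 0 of 45 were called, against 0.0% of all tested genes in each direction. In the interaction, which subtracts the radiation response of the adequate diet from that of the supplemented one, 0 of 45 were called, again against 0.0% lower and 0.0% higher. An unadjusted p under 0.05 was found for 6, 4 and 4 members (edgeR), and DESeq2 called 0 members in all 3 comparisons. The smallest adjusted p of a member in the interaction was 1.0. A difference between the diets in the response of single members was thus not detectable at the spread of these libraries.

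After irradiation, Igkc was higher in all 4 supplemented libraries (357 to 620 CPM) than in all 4 adequate ones (242 to 309 CPM). The log2 difference was 0.72 ± 0.36 (SE) with an adjusted p of 0.937 (edgeR). Igkc was 1 of 45 members above without overlap, and 0 members lay below. Of the 16558 tested genes, 282 lay below without overlap, and those above were not counted. The 1 member above can therefore not be read as a result about the members. On the deposited TPM its ranges overlapped, at 196 to 298 against 140 to 198. The sum of all members was above, at 436 to 756 CPM against 297 to 394 CPM, but Igkc held most of it. The members other than Igkc overlapped, at 76.5 to 136 CPM against 55.2 to 92.0 CPM. The smallest p values of this comparison were those of Ighv7-3, at -1.98 ± 0.80, and Iglv2, at -1.69 ± 0.72, both with an adjusted p of 0.927. Without irradiation they were those of Igkv8-27, at -2.87 ± 0.94 with an adjusted p of 0.243, and Igkv4-72, at -1.29 ± 0.48 with an adjusted p of 0.291. Igkv8-27 also had the smallest p in the interaction, at 3.90 ± 1.47, followed by Igkv4-80 at -2.16 ± 0.88, both with an adjusted p of 1.0.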

How the data were processed

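RNA of 16 jejunum libraries was depleted of ribosomal RNA, fragmented and built into libraries with a small RNA protocol, per the labels' protocols. Per the submitters' processing notes, the authors used Bowtie2 2.2.9, RSEM 1.3.0 and edgeR 3.2.4 with build NCBIM37. The deposited files give expected counts, which RSEM divides among genes that share reads, and TPM, per the file headers. Strand handling is not given in the sources used here, and the labels name no batch. Expected counts were rounded and tested with edgeR 4.0.16 in R 4.3.3: filterByExpr by group, TMM factors, glmQLFit with robust dispersion and 1 mean per group (common biological coefficient of variation 0.219). The fit was tested on simulated data. Alternatives included DESeq2 1.42.0, limma 3.58.1 (voom), other scalings and filters, and leaving out each library. Symbols came from GENCODE M21 for 32897 of 37620 IDs, and sequences from its transcripts on build GRCm38, so no coordinates are printed. Read sharing was counted over windows of 47 bases. This is the median over libraries of the median gap between length and effective length, rounded to whole bases.

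Members and lists were chosen with earlier results of these data known. Named members were the constant, J and lambda genes, the 6 most counted V segments of the heavy and of the kappa chain, the 4 most concentrated in 1 library, and the 2 with the smallest p per comparison. The other called members, Igkv4-57-1, the genes closest to Igkc and Ighv1-82 were named after their values were seen. Not each of them is described, and 1 context gene that the rule names is not reported here. A search for promoter motifs was not run for the members.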

Additional observations from a re-analysis of the deposited data

Results flagged for a closer look

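Within the groups of 4, a library was set apart where its gap to the nearest other exceeded Dixon's critical share of the group's range. This held for 23 of 176 group values. Chance sets a library apart in about 1 in 20 groups, but some of these members were named because 1 library held much of their counts, so the number cannot be read against that rate.

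Replicate 4 of the unirradiated adequate group stood high for the sum of all members at 1081.42 CPM, Igkv17-127 at 27.7 CPM, Igkv2-137 at 11.7 CPM, Igkv17-121 at 16.6 CPM and Ighv3-5 at 6.28 CPM. In the same group, replicate 1 stood high for Igkv4-63 at 3.07 CPM and Igkv3-10 at 4.6 CPM. Replicate 3 stood high for Igkv16-104 at 27.3 CPM, with 20.7% of V counts on that segment.

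In the irradiated adequate group, replicate 3 stood high for the summed heavy constant genes at 20.48 CPM, Ighg3 at 2.25 CPM and Ighv3-5 at 0.41 CPM. Igkv4-63 stood out in replicate 4 at 13.5 CPM, Igkv8-27 in replicate 2 at 4.98 CPM and Igkv5-48 in replicate 1 at 4.54 CPM.

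In the unirradiated supplemented group, replicate 3 stood high for Igkv17-127 at 53.0 CPM, Igkv8-21 at 10.4 CPM and Ighv3-5 at 5.09 CPM. Replicate 2 stood high for Ighm at 48.5 CPM and the summed heavy constant genes at 59.03 CPM. In the irradiated supplemented group, replicate 3 stood low for Ighg1 at 0.138 CPM and high for Igkv4-91 at 1.65 CPM, and replicate 4 stood low for Iglv2 at 0.0969 CPM.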

How the results depend on the processing

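Of 1654 recomputed values for single members, 1520 kept direction and side of the threshold, 70 lost a call, 41 gained one and 23 changed sign. The 6 members called lower on the adequate diet became 3 at an adjusted p under 0.01, 11 without scaling factors, 12 with DESeq2 and 3 to 9 with 1 library left out. The lowest count came without replicate 1 or 4 of the irradiated adequate group. The 12 on the supplemented diet became 5 at an adjusted p under 0.01 and 7 to 13 with 1 library left out, lowest without replicate 2 of the irradiated group. Leaving out the 3 libraries under 4 M counts, an alternative chosen after seeing the data, gave 6 and 9. The diet comparisons and the interaction stayed at 0 members under every alternative run. Without scaling factors the median of all genes moved to -0.162 and -0.196 (log2), and the calls over all genes from 1090 lower and 1180 higher to 2258 and 614 on the adequate diet.

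The log2 ratio of summed members was -2.12 and -1.92 on deposited TPM, against -0.92 and -0.54 on CPM, while the median of all tested genes lay at -1.09 and -1.27 on TPM. Relative to that median the members stood at -1.03 and -0.65. With 1 library left out the CPM ratios were -1.05 to -0.58 and -0.75 to -0.1, the last without replicate 3 of the unirradiated supplemented group. On TPM the share of Igkc in the sum of Igkc and Iglc2 was 99.5% in the unirradiated adequate group and 99.8% in the irradiated supplemented one. With segments outside the rule, also chosen after seeing the data, the leading V segment held 6.5, 9.55 and 7.41% in the last 3 groups, and the effective number was 38.7, 44.5, 38.4 and 40.0.

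Sign changes on the adequate diet came without replicate 4 of the unirradiated group for Ighv7-1 (-0.71 to 0.41 over the libraries left out), Igkv17-127 (-2.37 to 0.34), Igkv2-137 (-1.33 to 0.87) and Igkv17-121 (-1.82 to 0.38). They came without replicate 4 of the irradiated group for Ighv7-3 (-0.98 to 0.67) and Igkv4-80 (-0.9 to 0.45), and for Igkv4-80 with limma voom (-0.26). On the supplemented diet the ranges were -0.61 to 0.12 for Igkc, -0.64 to 0.21 for Ighg2b, -1.84 to 0.16 for Ighg3 and -1.2 to 0.19 for Iglv1. They were -1.48 to 2.29 for Igkv17-127, -1.22 to 0.66 for Igkv2-137 and -0.46 to 1.04 for Igkv17-121. Igkv17-127 was 0.02 with limma voom, Igkv2-137 0.02 with DESeq2, and Igkv17-121 -0.16 with limma voom and -0.45 without the shallow libraries. The causes were not tested.

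No paired analysis was possible because the labels give no replicate numbers, and the numbers used here follow sample order. Single V segments carried few counts and some share reads with others. How far this bears on their spread was not tested.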
